A study of Mus musculus with 10 samples.

Results

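The regions described here are narrow promoter regions: autosomal regions of the class prom, read here as promoter, whose deposited end minus start is under 1500 bp. There were 1423 of them, which is 8.87% of the 16051 autosomal promoter regions and 2.80% of all 50898 regions of the table. Width alone chose them, and their acetylation values were not used. They are compared with the 10889 autosomal promoter regions of 1500 to 6000 bp, called wider promoters below, and where width itself is at issue with the 7711 narrow regions of the class enh, read here as enhancer.

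H3K27ac ChIP-seq was carried out on cerebral cortex of C57BL/6J mice aged 8 weeks that carried 1 knockout allele of Dnmt3a (Het, n = 5) or were wild type (WT, n = 5). Each Het mouse had a WT littermate of its own sex, which gives 5 pairs. Litters 1, 3 and 5 were male and litters 2 and 4 female, and replicate numbers mark the litter. The labels call the allele a heterozygous knockout and do not say how it was made; the description of Het replicate 5 carries the term cKO, and that library was used as Het by its genotype label. Cortex is a mixture of neurons, glia and vascular cells, so a change in cell composition and a change of acetylation within cells cannot be told apart. Regions are named by mm9 position because the table gives no gene names and no mm9 annotation was used here; the genes behind the narrow promoters, cell type markers and the Dnmt3a locus were not analysed here.

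H3K27ac is an acetyl mark on histone H3 that sits on the nucleosomes flanking active promoters and enhancers, and its extent around a start site is usually broader at strongly transcribed genes. Nucleosomes next to CpG-rich promoters are commonly acetylated and their DNA is commonly unmethylated. Dnmt3a is a de novo DNA methyltransferase that in postnatal neurons deposits CG and non-CG methylation.

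Values are the pseudo-counts of the deposited table, read counts adjusted to 1 common library size, and are called signal below. Inverting that adjustment gave 4209117 to 8453140 reads in regions for the Het libraries and 2771534 to 7101495 for the WT libraries. A narrow promoter held a median of 22 reads per library, against 96 in wider promoters and 58 over all regions. The lowest library median for narrow promoters was 12 reads, in WT replicate 5, so single values of these regions carry a large counting error.

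Narrow promoters had less acetylation than wider ones even per unit of length. Their median signal was 21.5 pseudo-counts (quartiles 17.5 and 27.5), against 95.6 in wider promoters (quartiles 59.4 and 150.5). Per 1000 bp the median was 18.7 in narrow promoters and 34.4 in wider promoters, with 14.4 and 26.0 as the 10th and 90th percentiles in narrow ones, against 16.5 and 61.2 in wider ones. Only 18 narrow promoters (1.26%) lay above the wider promoters' median per kb. The narrow promoters together held 0.601% of the signal in all regions.

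Signal per kb increased with width up to 2000 to 2999 bp and was lower again in the widest classes. In narrow promoters of 774 to 999 bp the median was 17.8 pseudo-counts per kb, at 1000 to 1249 bp it was 17.6, and at 1250 to 1499 bp it was 19.9. In promoters of 1500 to 1999 bp it was 27.9, at 2000 to 2999 bp 39.3, at 3000 to 3999 bp 37.5 and at 4000 to 5999 bp 32.7. Enhancer regions showed no such increase, with medians between 16.9 and 20.2 per kb in every width class. The median of narrow promoters, 18.7 per kb, thus lay near the 17.4 of narrow enhancer regions. Narrow regions of the class uaProm, a class name not explained in the labels, had 20.5. At 1250 to 1499 bp promoters had a 90th percentile of 29.2 per kb, against 20.8 in enhancer regions, where the median was 16.9. Within the narrow promoters, log width correlated with log signal at a Pearson r of 0.74 and with log signal per kb at 0.26 (n = 1423 regions from the same 10 libraries, a description); signal and width are not independent where regions are called from the signal itself, and the sources used here do not give the calling method.

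**Figure D1:**
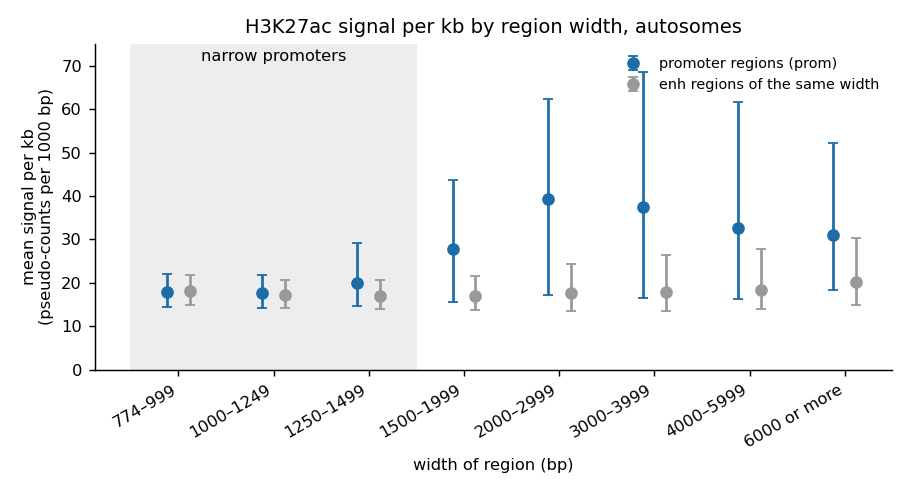
Mean H3K27ac signal per kb (pseudo-counts per 1000 bp, mean of 10 libraries, linear axis) by width of region on the autosomes, for promoter regions (blue) and enh regions (grey); points are medians and bars run from the 10th to the 90th percentile over regions. Promoters under 1500 bp (shaded) have medians of 17.6 to 19.9, and promoters of 2000 to 2999 bp reach 39.3. Below 1250 bp promoter medians lie close to those of enh regions, and at 1250 to 1499 bp they are 19.9 against 16.9.

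The narrowest regions shared 1 exact width. The minimum of 774 bp occurred in 22 narrow promoters and in 148 regions of the whole table, 124 of them of the class enh. The first 3 by position, chr1:38013476-38014250, chr2:73297719-73298493 and chr2:101524033-101524807, had a mean signal of 12.6, 15.1 and 15.6 pseudo-counts. At the other end, chr2:37528106-37529605 and chr3:37246823-37248322, both 1499 bp wide, had 19.5 and 34.8, and chr2:65961965-65963463, 1498 bp wide, had 35.1. Just across the limit, chr4:19935056-19936556 and chr15:82930071-82931571, both 1500 bp, had 35.3 and 25.8, and chr4:114493767-114495268, 1501 bp, had 37.6. The signal of the regions just inside and just outside the limit thus overlapped.

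A single region stood far above the other narrow promoters. The region chr11:3101834-3103256 (1422 bp) had 169.9, 181.0, 197.1, 167.1 and 131.2 pseudo-counts in Het libraries 1 to 5, and 165.2, 174.3, 212.3, 189.2 and 149.5 in WT libraries 1 to 5. Every library was high, and the genotypes overlapped. Its mean of 173.7 amounts to 122 per kb, and its log2 fold change between Het and WT was -0.08 (SE 0.11, limma adjusted p 1.00). The next highest, chr12:70268914-70270405, chr1:177810082-177811500, chr15:43308289-43309783 and chr11:26286625-26288039, had means of 76.6, 63.2, 62.7 and 59.2 pseudo-counts, or 51.4, 44.6, 41.97 and 41.86 per kb, so the same 5 regions led by signal and by signal per kb. All 5 were 1414 to 1494 bp wide, and none passed the test between Het and WT (log2 fold changes from -0.14 to 0.09).

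The lowest signal per kb was 5.86, at chr14:17242409-17243907 (1498 bp), followed by 8.75 at chr5:105539195-105540426 and 9.10 at chr4:84320611-84321808. In the first of these the Het libraries 1 to 5 had 12.8, 7.97, 6.85, 4.57 and 6.15 pseudo-counts and the WT libraries 7.66, 7.52, 7.58, 9.60 and 17.1. Het replicate 1 and WT replicate 5 were highest, and the ranges overlapped. These values rest on 4 to 13 reads per library.

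Narrow promoters were spread over all autosomes, from 6.15% of the promoter regions on chromosome 19 to 12.3% on chromosome 13. Their nearest neighbour in the table lay at a median gap of 11616 bp, against 9031 bp for wider promoters and 5616 bp for all regions; these gaps count only regions present in the table, whose numbering shows that regions of the class enh are missing more often than promoters. A neighbour within 2000 bp was found for 11.5% of narrow promoters, 13.5% of wider promoters and 22.6% of all regions. No neighbour within 100000 bp was found for 96 narrow promoters (6.75%), against 3.48% of wider promoters and 2.67% of all regions. The nearest region was another promoter for 53.5% of narrow promoters and an enhancer region for 41.95%. The nearest region had the stronger signal in 86.7% of narrow promoters, against 35.0% of wider promoters and 50.4% of all regions, as the lower level of the narrow class entails in part. Other narrow regions were alike, with 88.2% in narrow enhancer regions and 87.0% in narrow uaProm regions. Narrow promoters with a neighbour within 2000 bp (164 regions) had a median of 17.2 pseudo-counts per kb, and those with none within 10000 bp (772 regions) 19.3.

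The level of the class moved between animals more than that of wider promoters. Median signal per kb of narrow promoters was 22.1, 18.6, 15.6, 16.9 and 21.6 in Het libraries 1 to 5, and 19.95, 19.4, 17.9, 14.8 and 20.2 in WT libraries 1 to 5. Litters 1 and 5 were high and litters 3 and 4 low in both genotypes, and the genotypes overlapped. The mean was 18.98 ± 2.87 in Het and 18.5 ± 2.24 in WT (SD, n = 5 each), a difference smaller than the spread between animals. Wider promoters stayed between 33.2 and 35.0 per kb in the Het libraries and between 34.1 and 35.4 in the WT libraries. The share of signal in narrow promoters was 0.611 ± 0.0854% in Het and 0.592 ± 0.0659% in WT (SD, n = 5 each) and was higher in Het in 3 of 5 litters. Narrow enhancer regions moved with the narrow promoters, with 21.3, 17.3, 14.6, 15.8 and 18.6 per kb in Het libraries 1 to 5 and 18.1, 18.5, 16.2, 14.1 and 17.3 in WT libraries 1 to 5.

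**Figure D2:**
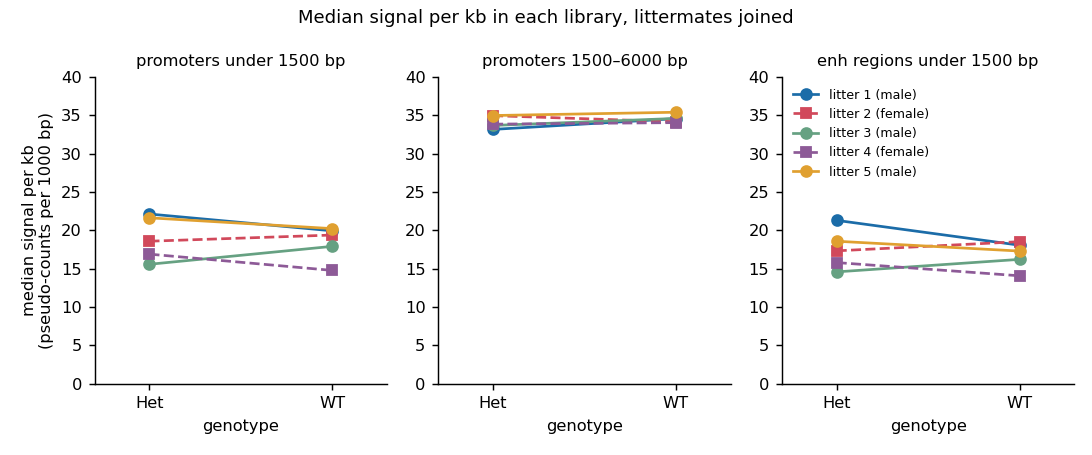
Median H3K27ac signal per kb (pseudo-counts per 1000 bp, linear axis from 0) in each of the 10 libraries, Het left and WT right in each panel, with littermates joined and female litters dashed. Narrow promoters and narrow enh regions spread over litters, from 14.8 to 22.1 in narrow promoters, while wider promoters stay between 33.2 and 35.4.

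The first comparison asked whether H3K27ac at narrow promoters differs between Het and WT littermates, and the class as a whole showed no difference larger than the spread between litters. The median log2 difference, Het minus WT on log2(signal + 1), over the 1423 regions was 0.15, -0.05, -0.19, 0.18 and 0.07 in litters 1 to 5, with a mean of 0.03 (SE 0.07, n = 5). It was above 0 in 3 of 5 litters and differed in sign between litters. In wider promoters it was -0.05, 0.04, -0.04, 0.01 and -0.05, with a mean of -0.02 (SE 0.02). Narrow minus wider was 0.20, -0.08, -0.15, 0.17 and 0.12, with a mean of 0.05 (SE 0.07), above 0 in 3 of 5 litters. Over all regions the mean was 0.01 (SE 0.02).

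The litter values of narrow promoters were close to those of other regions of low signal. Narrow enhancer regions gave 0.23, -0.09, -0.14, 0.15 and 0.10 in litters 1 to 5, and narrow promoters minus these averaged -0.02 (SE 0.02), above 0 in 2 of 5 litters. Among promoters with a mean of 15 to 30 pseudo-counts, the 994 narrow ones averaged 0.04 (SE 0.08) and the 402 wider ones 0.05 (SE 0.09). Their difference was -0.01 (SE 0.01), so at matched signal narrow and wider promoters moved alike in each litter to within 0.03. The strongest 5% of regions took a share of the signal that differed, Het minus WT, by -2.18, 0.90, 1.78, -1.16 and -0.99 percentage points in litters 1 to 5, opposite in sign to the narrow promoters' median in all 5 litters. Values are scaled to 1 library size, so a larger share in the strongest regions leaves less for the others. The opposite signs follow in part from that scaling. After abundance-dependent loess, which removes differences between libraries that follow signal strength, the narrow promoters' medians were -0.05, 0.03, -0.03, 0.02 and -0.03, with a mean of -0.01 (SE 0.02). The sign of the mean turned and the litters drew together. Loess is fitted to these same values and draws regions of a like signal toward 0, so this narrowing is largely built into the method.

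**Figure D3:**
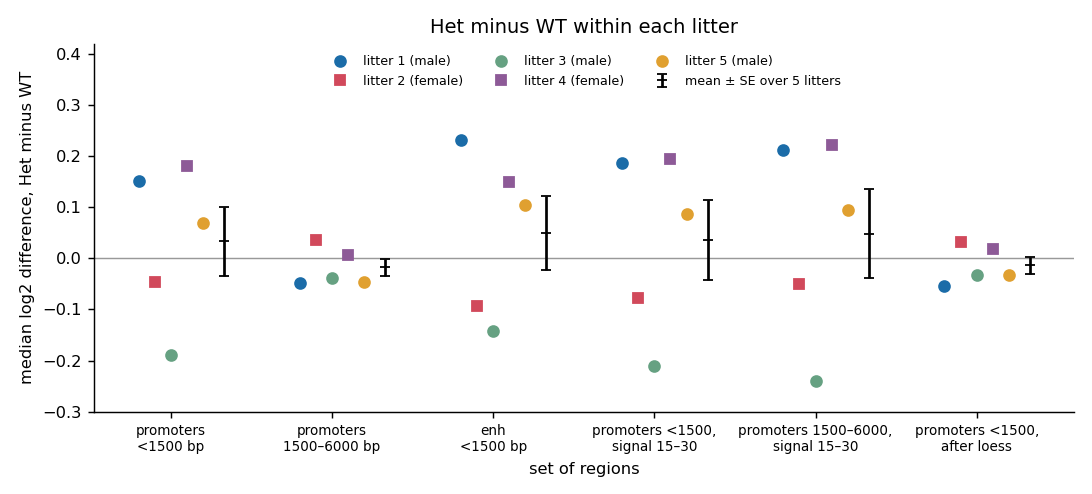
Median log2 difference Het minus WT (log2(signal + 1) scale) in each of the 5 litters for sets of regions; circles are male and squares female litters, and black marks are the mean ± SE over litters. Narrow promoters and narrow enh regions spread from -0.19 to 0.23, wider promoters stay within 0.05 of 0, and at a matched signal of 15 to 30 pseudo-counts narrow and wider promoters take nearly the same values in each litter.

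Region by region, no narrow promoter passed the test between genotypes in the fit with sex. With litter in place of sex as a block 1 passed, against 3 of all regions (0.00589%), and it is described below. By limma with sex and genotype as terms, 0 of 1423 had a Benjamini-Hochberg adjusted p under 0.05 over all 50898 regions, against a background of 0.00196%, which is 1 region, a wider promoter. Limma-voom on the recovered reads also called 0. An unadjusted p under 0.05 was found for 41 narrow promoters (2.88%), against 2.1% of all regions. Of the 41, 36 were higher in Het (2.53% of narrow promoters), against 1.45% of all regions, and 5 lower (0.351%), against 0.648%. Among the 1067 of all regions with such a p, 737 were higher and 330 lower. With the litter block the count was 63 (4.43%), against 4.63% of all regions. After loess 36 narrow promoters were higher (2.53%) and 28 lower (1.97%), against 1.61% and 1.41% of all regions. Scaling by TMM factors gave 36 higher and 10 lower (0.703%), against 1.46% and 0.978% of all regions, and median-of-ratios factors 36 and 10, against 1.39% and 1.07%. The median log2 fold change was 0.04 in narrow promoters, with 57.5% above 0, and -0.02 in wider promoters, with 42.6% above 0; over all regions it was 0.01, with 53.0% above 0. Other narrow regions leaned the same way, with 0.05 and 59.5% above 0 in narrow enhancer regions and 0.03 and 56.0% in narrow uaProm regions. With loess the narrow median was -0.0045, with 49.2% above 0.

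Of regions with 1 direction in all litters, those higher in Het were as common among narrow promoters as over all regions and those lower in Het less common; this difference was not tested. In 51 narrow promoters (3.58%) Het was above WT in 5 of 5 litters, against 3.53% of all regions, and in 21 (1.48%) below, against 2.46%. The shares above and below were 4.27% and 1.84% in narrow enhancer regions, and 3.61% and 0.361% in narrow uaProm regions, so other narrow regions also had fewer below. All Het libraries lay above all WT libraries in 6 (0.42%), against 0.226%, and below in 1 (0.07%), against 0.149%. The authors' deposited table lists 0 narrow promoters with an FDR under 0.05, against 0.00393% of all regions, and 32 (2.25%) with a p under 0.05, against 1.76%.

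Narrow promoters had larger standard errors, which limit how small a difference could be seen, and they also held fewer reads. The part of low counts in these errors was not tested. The median standard error of the log2 fold change was 0.24 in narrow promoters, 0.12 in wider promoters and 0.15 over all regions. The 95% interval excluded changes of 1.5-fold or more in both directions for 39.4% of narrow promoters, against 95.1% of wider promoters and 79.6% of all regions. At equal signal the errors were alike. The lowest decile of mean signal held 40.9% of narrow promoters but only 16 wider promoters. There the median standard error was 0.27 in narrow and 0.26 in wider promoters, and in the third decile it was 0.20 in both. In the remaining narrow promoters a change of 1.5-fold or more lies within the interval at this depth.

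The narrow promoter with the smallest genotype p was chr7:112910456-112911709 (1253 bp), which was higher in Het. Its signal was 42.2, 53.7, 29.3, 35.6 and 45.5 pseudo-counts in Het libraries 1 to 5, and 19.5, 24.9, 16.2, 16.4 and 31.0 in WT libraries 1 to 5. Het lay above its WT littermate in 5 of 5 litters, while the genotypes overlapped, since Het replicate 3 lay below WT replicate 5. The recovered reads were 43, 79, 21, 32 and 51 in Het and 25, 29, 15, 21 and 17 in WT. The log2 fold change was 0.92 (SE 0.21, 95% interval 0.49 to 1.34), with a limma adjusted p of 1.00. When litter replaced sex as the block, the standard error was 0.18 and the adjusted p 0.0244, the 1 narrow promoter called, against a background of 0.00589%. With the block the call held under the other scalings, pseudocounts, the filter on low signal and limma-voom (adjusted p from 0.0138 to 0.0286), and it was lost without both animals of litter 1 (adjusted p 0.257), 2 (0.403), 4 (0.281) or 5 (0.0723). The authors' deposited table gives this region a log2 fold change of 0.97 and an FDR of 0.907. The nearest region, an enhancer region at a gap of 2465 bp, had a log2 fold change of 0.0027 (SE 0.15).

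The next, chr5:93237678-93239076 (1398 bp), had 47.2, 31.7, 38.9, 34.5 and 41.95 pseudo-counts in Het libraries 1 to 5, and 28.8, 18.5, 19.4, 21.5 and 25.5 in WT libraries 1 to 5. Every Het library lay above every WT library. Its log2 fold change was 0.75 (SE 0.19), with a limma adjusted p of 1.00, and of 0.370 with the litter block, so it did not pass either test. An enhancer region at a gap of 609 bp had a log2 fold change of 0.23 (SE 0.18).

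The other 8 of the 10 narrow promoters with the smallest p among those higher in Het had log2 fold changes from 0.49 to 0.73, and none passed. In chr2:145178704-145179749 the Het libraries held 24.6, 26.0, 24.2, 24.4 and 23.1 pseudo-counts, and the WT libraries 19.1, 20.7, 14.02, 11.6 and 13.2. The Het values lay within a narrow band above all WT values. In chr15:101632617-101634050 they were 30.5, 24.0, 34.2, 29.8 and 24.8 in Het and 17.1, 23.2, 21.4, 17.5 and 15.4 in WT, and in chr2:169144133-169145547 they were 31.4, 33.5, 36.2, 48.3 and 31.0 in Het and 24.2, 29.1, 26.8, 23.9 and 21.5 in WT. These groups did not overlap either. In chr7:19842625-19843797 the Het libraries had 29.5, 21.9, 19.6, 30.8 and 32.3 and the WT libraries 20.8, 15.2, 17.2, 18.6 and 8.51, higher in Het in 5 of 5 litters with overlap between the groups. Of the 10, 7 were higher in Het in 5 of 5 litters and 4 did not overlap, a pattern that follows in part from choosing the smallest p. The remaining regions were chr13:98520682-98521847, chr3:152426250-152427024, chr10:59279583-59280787 and chr19:28373205-28374377, with log2 fold changes of 0.59, 0.69, 0.60 and 0.58.

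Among narrow promoters with lower values in Het, the 10 with the smallest p had log2 fold changes from -0.75 to -0.30, and none passed. Only chr11:101507191-101508190 separated the genotypes, with 13.7, 16.4, 21.0, 19.8 and 16.9 pseudo-counts in Het libraries 1 to 5 and 25.2, 22.9, 24.7, 22.2 and 29.0 in WT libraries 1 to 5. Every Het library lay below every WT library. Its log2 fold change was -0.48 with SE 0.22 and a limma adjusted p of 1.00. The region with the smallest p in this direction, chr2:113528234-113529369, had 27.6, 18.6, 13.9, 19.9 and 10.4 in Het and 23.3, 25.5, 23.7, 29.0 and 32.5 in WT, with Het above WT in litter 1 and overlap between the groups. Its log2 fold change was -0.60, with SE 0.24 and a limma adjusted p of 1.00. The largest difference, -0.75 (SE 0.32), was at chr2:150709890-150710838, where Het libraries 3 and 4 had 3.66 and 7.96 pseudo-counts and their WT littermates 13.1 and 20.04. In 4 of the 10, Het lay below WT in every litter. The other 7 were chr9:72862115-72863073, chr14:31946276-31947688, chr2:151319643-151320805, chr8:97268873-97269742, chr6:121030781-121031833, chr15:98538174-98539503 and chr12:66273090-66274569.

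**Figure D4:**
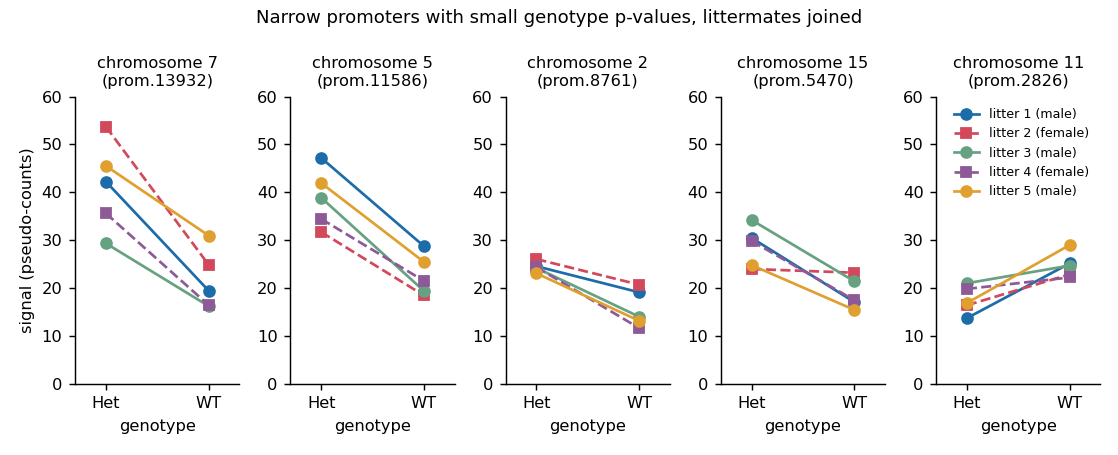
H3K27ac signal (pseudo-counts, linear axis from 0) of 5 narrow promoters named for their small genotype p, Het left and WT right, with littermates joined and female litters dashed. The regions on chromosomes 5, 2 and 15 have all Het above all WT libraries, that on chromosome 11 all Het below all WT, and that on chromosome 7 is higher in Het in every litter with overlap between groups.

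The fold changes of neighbouring regions are given for the closest cases; since the narrow promoters were chosen by their p and the neighbours were not, smaller values in the neighbours follow from that choice. Of the 20 named for genotype, chr6:121030781-121031833 had the closest neighbour, an enhancer region at a gap of 287 bp whose log2 fold change was 0.00097 (SE 0.15), where the narrow promoter itself had -0.57 (SE 0.30). For chr14:31946276-31947688, at -0.52 (SE 0.25), a promoter region at a gap of 1096 bp had -0.0054 (SE 0.11).

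The second comparison set males against females. Each litter was of 1 sex, so sex and litter cannot be told apart. Narrow promoters had a median log2 difference of 0.14, male minus female, against -0.0049 in wider promoters and 0.03 over all regions. Other narrow regions were also above 0, with 0.09 in narrow enhancer regions and 0.12 in narrow uaProm regions. Loess, fitted to signal strength, moved the median of narrow promoters to 0.03. The level also differed between litters of the same sex: relative to the mean of all libraries, the narrow promoters' median lay at 0.17, -0.13 and 0.15 in the male litters 1, 3 and 5, and at 0.04 and -0.21 in the female litters 2 and 4, so female litter 4 lay below and female litter 2 between the male litters. In wider promoters the same litter values stayed within 0.02 of 0.

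Between the sexes 4 narrow promoters (0.281%) passed, all higher in males, against a background of 0.904%, or 0.841% for those higher in males. That background covers all regions and so includes those outside the autosomes. Among narrow enhancer regions 2 (0.0259%) passed, and among narrow uaProm regions 0. The fit has no litter term, so these p-values count littermates as independent animals although sex varied only between litters, and they can be too small. An unadjusted p under 0.05 was found for 150 (10.5%), against 13.2% of all regions. The share was 5.30% in narrow enhancer regions and 9.75% in narrow uaProm regions. Of the 150, 141 were higher in males (9.91%), against 8.96% of all regions, and 9 lower (0.632%), against 4.25%. After loess 98 were higher (6.89%), against 8.31%, and 39 lower (2.74%), against 5.93%. The region with the smallest p was chr10:75394513-75395793. It had 39.4, 32.1, 23.4, 19.4, 48.9 and 40.6 pseudo-counts in the males, given as Het then WT of litters 1, 3 and 5. In the females it had 18.0, 22.0, 11.6 and 9.44, given as Het then WT of litters 2 and 4. The sexes overlapped, since the WT male of litter 3 lay below the WT female of litter 2. Its log2 difference was 1.11 (SE 0.25, limma adjusted p 0.0278).

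In chr4:135980036-135981156 the males ranged from 14.2 to 41.0 pseudo-counts with a median of 22.0, and the females had 12.2, 10.8, 9.25 and 8.23, so the sexes did not overlap (log2 difference 1.10, SE 0.27, limma adjusted p 0.0398). In chr8:42011255-42012350 the males ranged from 13.96 to 24.6 with a median of 22.6, and the females had 13.9, 9.06, 14.6 and 2.44, with overlap (log2 difference 1.22, SE 0.30, adjusted p 0.0404). WT replicate 4 was the lowest of all libraries there. In chr13:64349384-64350804 the males ranged from 23.1 to 37.0 with a median of 30.4. The females had 20.5, 19.4, 15.9 and 8.65, again without overlap (log2 difference 0.93, SE 0.23, limma adjusted p 0.0412).

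All 4 calls ended without both animals of litter 1 (adjusted p from 0.122 to 0.163), 4 (0.682 to 0.904) or 5 (0.213 to 0.416), and without WT replicate 4 alone (0.215 to 0.371). Without litter 4 the log2 differences were 0.68 on chromosome 10, 0.92 on chromosome 4, 0.85 on chromosome 8 and 0.57 on chromosome 13, and without WT replicate 4 that on chromosome 8 was 0.79. Median-of-ratios factors (0.0547 to 0.0595) and limma-voom (0.0517 to 0.0678) each ended 3 of the 4, all but chromosome 10. They held without Het replicate 3 (0.0014 to 0.0067) and without WT replicate 2 (0.0085 to 0.0307). Leaving out Het replicate 1, 2, 4 or 5 or WT replicate 5 also ended all 4 calls, with adjusted p from 0.0682 to 0.171. Without WT replicate 1 or WT replicate 3 only the chromosome 10 region among the 4 stayed called (0.0496 and 0.0335). The 5 narrow promoters with the smallest p among those lower in males, led by chr16:91618268-91619746 at -0.36 (SE 0.15), had log2 differences from -0.55 to -0.36 and did not pass (adjusted p from 0.252 to 0.290).

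**Figure D5:**
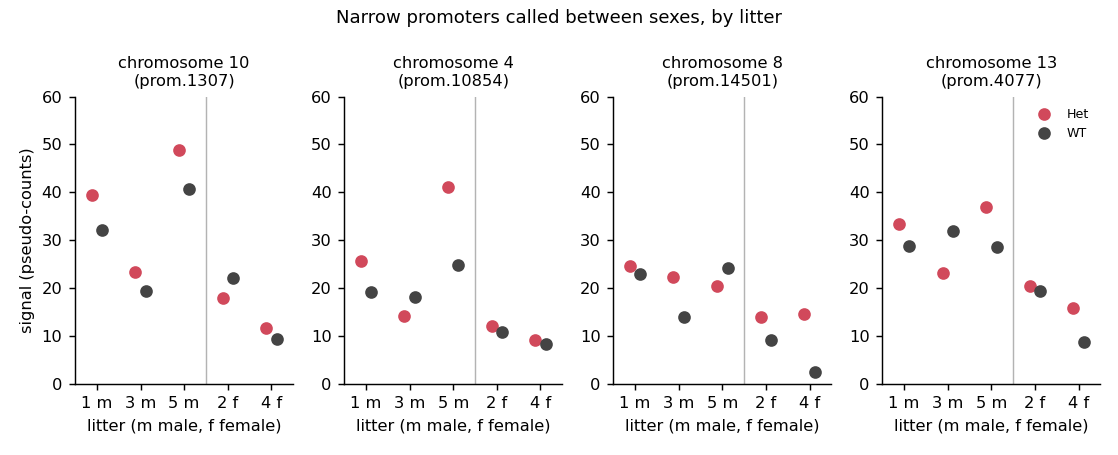
H3K27ac signal (pseudo-counts, linear axis from 0) in every library of the 4 narrow promoters called between males and females, by litter with male litters left and female litters right of the grey line; red points are Het and dark points WT. Litter 4 is low at the regions on chromosomes 10, 4 and 13, and WT replicate 4 is lowest at the region on chromosome 8.

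Litters differed more at narrow promoters than at wider ones. The median SD of litter means on the log2 scale was 0.28 over narrow promoters, against 0.16 in wider promoters and 0.19 over all regions. Other narrow regions had a like spread, with 0.28 in narrow enhancer regions and 0.27 in narrow uaProm regions. Narrow promoters also held fewer reads, and the part of counting error in this spread was not tested. The 5 narrow promoters with the largest SD were chr9:90057660-90058967 (0.88), chr10:75394513-75395793 (0.78), chr4:118627163-118628081 (0.76), chr11:70068070-70069006 (0.75) and chr4:44080222-44080996 (0.74). In chr9:90057660-90058967 the Het libraries 1 to 5 had 30.5, 24.4, 14.6, 16.9 and 39.8 pseudo-counts and the WT libraries 23.3, 21.5, 8.81, 3.09 and 34.0. Litter 5 was highest and litters 3 and 4 lowest in both genotypes.

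The third comparison tested whether the genotype difference depends on sex, and 0 narrow promoters passed the limma interaction test, as did 0 of all regions. An unadjusted p under 0.05 was found for 22 (1.55%), against 1.36% of all regions. Limma-voom and the litter block also called 0. The smallest p was at chr11:69748959-69750403, where the Het libraries 1 to 5 had 21.6, 27.6, 14.5, 19.02 and 38.0 pseudo-counts and the WT libraries 32.9, 12.1, 32.0, 10.3 and 40.9. Het lay above WT in both female litters and below it in the 3 male litters. Het minus WT was -0.59 in males and 0.98 in females on the log2 scale, an interaction of -1.57 (SE 0.49, limma adjusted p 1.00). The next were chr8:72704759-72706015, with -0.79 in males and 0.87 in females, and chr4:118627163-118628081, with -0.32 in males and 1.56 in females.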

How the data were processed

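H3K27ac ChIP-seq of cortex from 5 Het and 5 WT littermates was analysed. The submitters' processing notes name Bowtie2, edgeR and the build mm9 as used by the authors; the sources used here give no versions and no account of how regions were called or classed. Each deposited value is a region's signal in pseudo-counts, per the file headers, meaning reads scaled by the authors to 1 library size, which would hide a uniform change of acetylation. The deposited table also holds the authors' log2 fold changes, log2 CPM, p-values and FDR. Whether starts count from 0 or 1 is not stated; coordinates are printed as deposited.

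Since pseudo-counts are not counts, limma 3.58.1 (R 4.3.3, trend, robust) was fitted to log2(signal + 1) with sex and genotype over all 50898 regions and 10 libraries, with Benjamini-Hochberg adjustment at 0.05; fold changes on this scale understate changes of weak regions. The quantile adjustment was inverted with a dispersion of 0.0151 estimated from the data; 99.957% of values came out within 0.1 of a whole number, and 9 values deposited as 0 were set to 0 reads. The reads served for depth and limma-voom. Reads carry no molecular identifiers. The script was tested on simulated data.

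The protocol names 5 littermate pairs, and replicate numbers pair the samples. For litter 5, whose animal labels share no litter number, the pair was inferred from the header of the values, which joins both animals. Deviations from group means correlated within litters 1 to 5 at 0.23, 0.12, 0.080, 0.36 and 0.42 over all regions. Over narrow promoters these correlations were 0.085, -0.0074, 0.019, 0.23 and 0.33. The litter block, other scalings, loess, a filter at a mean of 20, pseudocounts of 0.5 and 5, limma-voom, a threshold of 0.10, no sex term, other width limits and leaving out libraries were alternatives; the block combined with another choice and leaving out whole litters were added after seeing the data. Narrow promoters named are those called for genotype, the 10 with the smallest genotype p per direction, the 5 with the smallest sex p per direction, the 3 with the smallest interaction p, extremes of signal and width, and the 5 with the largest litter SD. The members, lists and tests were chosen with earlier results of these data known.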

Additional observations from a re-analysis of the deposited data

Results flagged for a closer look

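Of 129 groups of values at the named narrow promoters, 4 held a library far from the others of its group, fewer than the 1 in 20 that chance gives. At chr2:151319643-151320805 Het replicate 2 had 26.4 pseudo-counts, against 13.7 to 16.8 in the other Het libraries, and this library alone lay above its WT littermate. At chr12:66273090-66274569 WT replicate 4 had 37.0, against 49.4 to 53.4 in the other WT libraries. At chr14:17242409-17243907, the narrow promoter with the lowest signal per kb, WT replicate 5 had 17.1, against 7.52 to 9.60 in the other WT libraries. At chr2:65961965-65963463 Het replicate 2 had 43.2, against 32.8 to 35.4 in the other Het libraries.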

How the results depend on the processing

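Genotype calls among narrow promoters were 0 in the fit with sex and stayed 0 without any single library. They were 1 with the replicate block and 1 with it under limma-voom, pseudocounts 0.5 and 5, loess, TMM, median-of-ratios factors and the filter, but 0 to 1 without single litters. Over all regions 1 became 3 with the block in each of these, 1 to 6 with the block and without single litters, 0 without the sex term and 0 to 1 without single libraries or litters. In wider promoters 1 became 0 without the sex term, 0 to 1 without single libraries or litters and up to 2 with the block and without litter 3. The 4 sex calls among narrow promoters were 1 with median-of-ratios factors, 7 with loess, 2 with the filter, 14 at a threshold of 0.10, 1 with limma-voom, 0 to 50 without single libraries and 0 to 65 without single litters (65 without litter 3, 14 without litter 2, 0 without litter 1, 4 or 5). The highest, 50, was without Het replicate 3, and 18 were called without WT replicate 2. Over all regions the 460 sex calls were 203 with TMM factors, 94 with median-of-ratios factors, 849 with loess, 14 to 3580 without single libraries and 3 to 3985 without single litters. Interaction calls stayed at 0 in every setting run. The share of signal in narrow promoters was 0.440% with the filter, 0.0971% at an upper width of 1000 bp and 2.51% at 2000 bp. The mean of the litter medians, 0.03, ran from -0.0035 without litter 4 to 0.09 without litter 3, with -0.01 after loess. The block changed no other call of a named region. For named regions, 961 values kept direction and side of the threshold, 14 gained and 49 lost a call, and none reversed. Causes were not tested. The standard errors of narrow promoters limit what is seen here, and 59.6% of narrow promoters had a mean of at least 20 pseudo-counts.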
